A study of Mus musculus with 4 samples.

Results

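The genes described here are 32 genes of cholesterol and fatty acid metabolism, taken by gene symbol from the 33696 genes of the count matrices. All 32 symbols were found. The set holds 3 genes of acetyl-CoA supply, 9 genes from mevalonate to lanosterol, 8 genes after lanosterol, 4 control genes, 5 genes of fatty acid synthesis and 3 transport genes. The control and transport genes encode regulators and carriers and not synthesis enzymes. The data are single-nucleus RNA counts from cortex of wildtype C57BL/6JRj female mice at about 12 weeks of age, in 2 libraries from non-pregnant controls and 2 libraries from pregnant mice taken at E13.5 (embryonic day of the pregnancy). All 4 samples were processed on ice in the presence of actinomycin D, which blocks transcription. The labels describe the libraries of a group as biological replicates and do not say which area of cortex was dissected, so p-values measure the spread between these samples.

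Cholesterol is built from acetyl-CoA through mevalonate, squalene and lanosterol, and saturated and monounsaturated fatty acids are built from the same acetyl-CoA. Most genes of both pathways are switched on by the membrane-bound transcription factors encoded by Srebf1 and Srebf2, which Scap escorts to the Golgi apparatus when sterols are low and Insig1 holds back in the endoplasmic reticulum when they are high. The adult brain makes its own cholesterol because lipoproteins of the blood do not cross the blood-brain barrier. Astrocytes supply neurons with cholesterol on particles that carry apolipoprotein E, and oligodendrocytes make it for myelin.

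Promoter windows from RefSeq (mouse build GRCm38.p6, 250 bases before to 50 bases after the annotated start) were matched by symbol to 26 of the 32 genes, all but Fdps, Fdft1, Sqle, Scd1, Scd2 and Stard4. The gene counts themselves were made on GRCm39. The windows of Acly, Acss2 and Lss are printed because these genes fell in astrocytes of pregnant mice, and that of Hmgcs1 because, among the other matched members, it had the smallest p for the difference between astrocytes and excitatory neurons. Capitals mark matches on either strand to the sterol regulatory element TCACNCCAC, the CCAAT box CCAAT, the GC box GGGCGG and the E-box CACGTG, and no matches overlapped in these windows. The windows lie at chr11:100527951-100528250 (minus strand), chr2:155517793-155518092 (plus strand), chr10:76531355-76531654 (plus strand) and chr13:119690101-119690400 (plus strand), each read 5′ to 3′ along the gene.
Acly: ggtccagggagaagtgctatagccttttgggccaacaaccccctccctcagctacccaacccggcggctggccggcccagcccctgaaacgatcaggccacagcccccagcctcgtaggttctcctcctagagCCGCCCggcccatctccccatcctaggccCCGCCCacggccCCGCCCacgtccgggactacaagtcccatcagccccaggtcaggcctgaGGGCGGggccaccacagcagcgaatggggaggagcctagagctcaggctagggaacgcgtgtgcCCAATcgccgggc
Acss2: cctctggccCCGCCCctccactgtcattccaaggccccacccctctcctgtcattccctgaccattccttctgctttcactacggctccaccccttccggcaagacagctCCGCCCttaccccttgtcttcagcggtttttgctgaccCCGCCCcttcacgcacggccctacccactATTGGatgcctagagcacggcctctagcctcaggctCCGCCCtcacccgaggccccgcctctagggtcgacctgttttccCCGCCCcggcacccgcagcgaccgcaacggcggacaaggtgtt
Lss: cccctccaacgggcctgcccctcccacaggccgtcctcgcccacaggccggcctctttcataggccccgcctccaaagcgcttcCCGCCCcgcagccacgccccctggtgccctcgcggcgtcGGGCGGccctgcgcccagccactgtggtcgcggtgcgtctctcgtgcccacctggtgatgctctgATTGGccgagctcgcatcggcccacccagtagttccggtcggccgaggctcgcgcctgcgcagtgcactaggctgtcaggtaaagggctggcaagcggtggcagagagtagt
Hmgcs1: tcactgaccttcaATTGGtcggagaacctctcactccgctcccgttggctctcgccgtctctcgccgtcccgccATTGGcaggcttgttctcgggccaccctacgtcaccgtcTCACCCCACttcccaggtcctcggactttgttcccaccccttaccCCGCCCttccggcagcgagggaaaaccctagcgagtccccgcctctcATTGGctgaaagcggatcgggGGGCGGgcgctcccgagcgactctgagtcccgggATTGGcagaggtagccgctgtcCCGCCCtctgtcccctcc
The sterol regulatory element of Hmgcs1 starts 137 bases before the annotated start, at position -137, and such a match was present in 1.24% of all 32851 promoter windows. Some genes have several annotated starts, so the 26 matched genes have 34 windows, and shares are given per window. The sterol regulatory element was present in 1 of these 34 windows (2.94%), that of Hmgcs1. A CCAAT box was present in 21 of the 34 windows (61.8%) and in 37.4% of all windows, and a GC box in 24 (70.6%) and in 35.7% of all windows. The E-box was present in 7 of the 34 windows (20.6%), which belong to Hsd17b7, Sc5d, Dhcr7, Insig1, Scap and Abca1, and in 7.15% of all windows. Acly held 4 GC boxes and 1 CCAAT box, Acss2 held 5 and 1, Lss held 2 and 1, and Hmgcs1 held 3 and 4. A match is a description of letters in the window and was not tested for binding. Sites with other letters or outside the window were not searched for, so a window without a match is not shown to lack such a site.

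The 4 matrices held 26816 barcodes, of which 25033 were kept as nuclei, with 97875766 to 116860425 unique molecular identifiers (UMIs, 1 for each captured RNA molecule) per library. Non-pregnant replicate 2 was the deepest, with a median of 17723 UMIs per barcode against 13187.5 to 14330.5 in the other 3. Any pair of libraries shared 20 to 31 barcodes. Astrocytes gave 128 and 144 nuclei in the non-pregnant libraries and 243 and 225 in the pregnant libraries, and oligodendrocytes gave 487 and 457, and 470 and 407. Oligodendrocyte precursors gave 107 and 136, and 140 and 126 nuclei, excitatory neurons 4493 and 4068, and 3609 and 3493, and inhibitory neurons 604 and 500, and 496 and 499. All 10 astrocyte markers were detected in the astrocyte sum of every library. Clusters 22, 23, 24 and 28, with excitatory markers, were found nearly only in the pregnant libraries and were held out of the excitatory sum, and cluster 13, which stayed in it, had no nucleus in non-pregnant replicate 2.

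Levels are given as CPM, the UMIs of a gene scaled to a common total of UMIs of the same cell type in the same library. UMIs were not scaled to gene length, so a gene or a sum of genes is compared between cell types and not with another gene. Cell types were found by clustering without these genes, and their levels are a description with no test. The SD of a level is taken over all 4 libraries, so it also holds any difference between the non-pregnant and pregnant groups. The 32 genes together took a summed level of 3303 and 3324 CPM in astrocytes of the non-pregnant libraries and 2469 and 2439 CPM in those of the pregnant libraries. In excitatory neurons the same sum was 692.7 and 606.1 CPM, and 719.1 and 678.9 CPM. The mean over 4 libraries relative to excitatory neurons was 4.28 in astrocytes, 2.58 in newly formed oligodendrocytes, 2.49 in oligodendrocytes, 1.55 in oligodendrocyte precursors, 1.49 in endothelial cells, 1.27 in microglia and 1.14 in inhibitory neurons. Of the 32 genes, 27 had their highest mean in astrocytes among astrocytes, oligodendrocytes, precursors and both neuronal classes, and in 25 of these all 4 astrocyte libraries lay above all libraries of the next cell type. The exceptions were Ebp, Scap, Acaca and Scd2, which were highest in oligodendrocytes, and Elovl6, which was highest in oligodendrocyte precursors. Ebp and Scap overlapped with the next cell type, as did Acat2 and Srebf1 among those highest in astrocytes. The share of all genes that were highest in astrocytes, with or without overlap, is not given here, so these counts have no background.

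**Figure D1:**
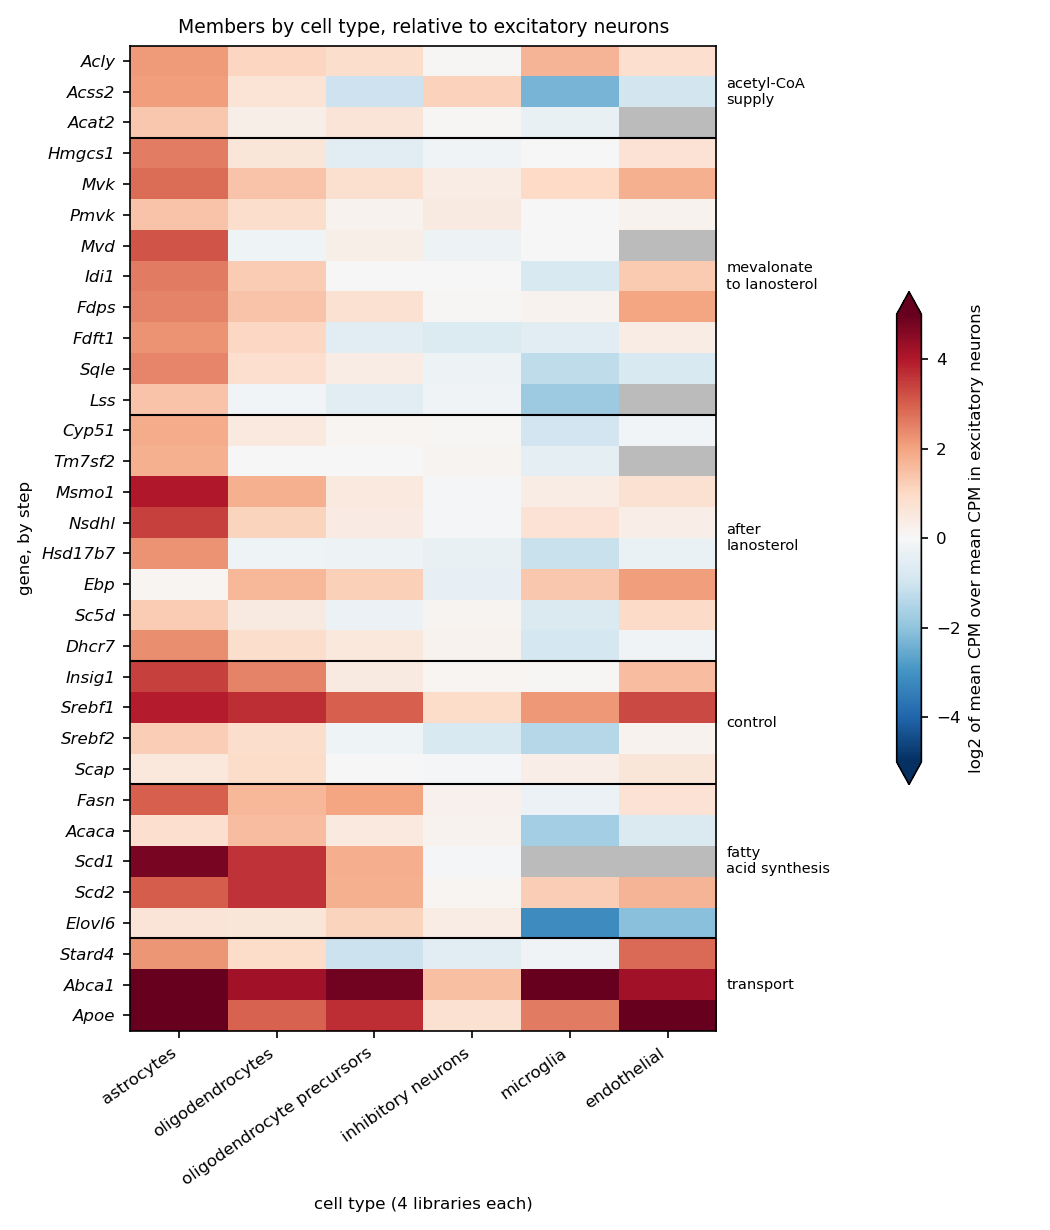
Heat map of the 32 genes (vertical axis, grouped by step) in 6 cell types (horizontal axis), coloured by the log2 of the mean CPM over 4 libraries divided by the mean CPM in excitatory neurons. Grey marks genes at or under the floor of 3 UMIs, and the colour saturates at 5 log2 units. The astrocyte column is red, with Apoe (ratio 58.6) and Abca1 (36.7) past the end of the scale, except for Ebp, which is near white at 1.06, and in microglia the ratio runs up to 90.8 for Abca1.

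Acetyl-CoA supply. Acly, which splits citrate into cytosolic acetyl-CoA, averaged 66.7 CPM in astrocytes, 32.3 in oligodendrocytes, 28.2 in precursors, 15.8 in inhibitory and 15.4 in excitatory neurons. Acss2, which makes acetyl-CoA from acetate, averaged 270.9 CPM ± 63.6 in astrocytes, 141.9 ± 10.8 in inhibitory neurons, 101.7 ± 14.3 in oligodendrocytes, 62.97 ± 0.774 in excitatory neurons and 30.96 ± 5.11 in precursors (SD, n = 4 libraries). None of these 5 neighbouring levels of Acss2 overlapped, and it was the only member for which inhibitory neurons came second without overlap on either side. Acat2, the thiolase that joins acetyl-CoA units, differed less, with 33.8 CPM in astrocytes and 13.4 in excitatory neurons. The 3 genes together stood at 4.05 times the excitatory level in astrocytes, 1.87 in inhibitory neurons, 1.64 in oligodendrocytes, 0.873 in precursors and 0.794 in microglia.

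Mevalonate to lanosterol. The 9 enzymes of this stretch were each at least 2.68 times as high in astrocytes as in excitatory neurons, and their sum was 5.08 times as high. Hmgcs1, the synthase before mevalonate, averaged 139.7 CPM ± 30.3 in astrocytes against 35.95 ± 3.93 in oligodendrocytes and 23.5 ± 6.3 in excitatory neurons (SD, n = 4). The ratio to excitatory neurons in astrocytes was 6.86 for the kinase Mvk, 2.68 for the kinase Pmvk, 8.94 for the decarboxylase Mvd, 6.13 for the isomerase Idi1 and 5.65 for Fdps, which makes farnesyl diphosphate. It was 4.71 for the squalene synthase Fdft1, 5.44 for the squalene epoxidase Sqle and 2.69 for the lanosterol synthase Lss. Oligodendrocytes stood at 1.79 times the excitatory sum, precursors at 0.951, inhibitory neurons at 0.89 and microglia at 0.772. In the excitatory sum itself non-pregnant replicate 2 was low at 73.5 CPM, against 105.7 in non-pregnant replicate 1 and 119.7 and 103.4 in the pregnant libraries.

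After lanosterol. The enzymes that turn lanosterol into cholesterol stood at 5.84 times the excitatory level in astrocytes as a sum, a higher ratio than for acetyl-CoA supply or for mevalonate to lanosterol. Msmo1, an oxidase that removes methyl groups, averaged 259.4 CPM in astrocytes and 15.97 in excitatory neurons (ratio 16.2), and Nsdhl, a dehydrogenase that acts with it, 120.1 and 11.1 CPM (ratio 10.8). The ratio in astrocytes was 4.96 for Dhcr7, the reductase of the last step, 4.75 for the ketone reductase Hsd17b7, 3.58 for the lanosterol demethylase Cyp51, 3.44 for the sterol reductase Tm7sf2 and 2.44 for the desaturase Sc5d. The sterol isomerase Ebp went another way, with 3.63 CPM in astrocytes, 10.98 in oligodendrocytes, 7.84 in precursors and 3.44 in excitatory neurons, and it rests on few counts. Oligodendrocytes stood at 1.76, precursors at 1.13, inhibitory neurons at 1.01 and microglia at 0.807 times the excitatory sum.

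Control. Insig1, which retains the precursor proteins, was 10.6 times as high in astrocytes and 5.51 times as high in oligodendrocytes as in excitatory neurons. Srebf1, whose product drives fatty acid genes foremost, was 15.1 times as high in astrocytes, 12.9 in oligodendrocytes and 7.97 in precursors, and the astrocyte and oligodendrocyte libraries overlapped. Srebf2, whose product drives sterol genes foremost, spanned a narrower range, with 150.4 CPM ± 10.1 in astrocytes, 116.7 ± 6.76 in oligodendrocytes, 63.7 ± 4.5 in excitatory neurons, 54.7 ± 6.97 in precursors and 37.7 ± 4.31 in inhibitory neurons (SD, n = 4). The escort Scap was 1.89 times the excitatory level in oligodendrocytes and 1.46 in astrocytes.

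Fatty acid synthesis. Here oligodendrocytes led, with 3.11 times the excitatory sum, before astrocytes at 2.29, precursors at 1.81, inhibitory neurons at 1.17 and microglia at 0.39. Acaca, the carboxylase that makes malonyl-CoA, averaged 424.9 CPM ± 36.6 in oligodendrocytes, 261.8 ± 33.5 in astrocytes, 205.8 ± 11.4 in precursors, 165.2 ± 10.2 in inhibitory and 146.8 ± 3.15 in excitatory neurons (SD, n = 4), with no overlap between neighbours. Scd2, a desaturase of fatty acids, averaged 197.6 CPM in oligodendrocytes, 130.2 in astrocytes and 15.97 in excitatory neurons. Its relative Scd1 was higher in astrocytes, at 16.1 CPM, than in oligodendrocytes, at 7.48. The synthase Fasn averaged 31.2 CPM in astrocytes, 15.2 in precursors and 12.4 in oligodendrocytes, and the precursors and oligodendrocytes overlapped. Elovl6, which lengthens palmitate, averaged 165.7 CPM ± 14.8 in precursors, 120.9 ± 21.5 in astrocytes and 118.1 ± 12.4 in oligodendrocytes, and the last 2 overlapped (SD, n = 4). In newly formed oligodendrocytes, with 18 to 28 nuclei per library, Elovl6 averaged 284.4 CPM ± 122.2.

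Transport. Abca1 and Apoe were higher in astrocytes, precursors and oligodendrocytes than in neurons, with no overlap between neighbouring types. Abca1, which exports cholesterol to lipoproteins, averaged 408.6 CPM in microglia, 165.1 in astrocytes, 127.6 in precursors, 81.96 in oligodendrocytes, 12.9 in inhibitory and 4.5 in excitatory neurons. Apoe, the lipoprotein that carries cholesterol between brain cells, averaged 222.8 CPM ± 128.9 in astrocytes, 179.6 ± 55.4 in endothelial cells (27 to 74 nuclei per library), 48.7 ± 7.43 in precursors, 29.02 ± 6.41 in oligodendrocytes, 23.3 ± 8.83 in microglia and 3.8 ± 0.603 in excitatory neurons (SD, n = 4). The wide spread in astrocytes rested on 1 nucleus of non-pregnant replicate 2, which held 326 of the 520 Apoe UMIs of that library's astrocytes (62.69%). Without that nucleus the astrocyte mean of Apoe was 158.9 CPM ± 9.33, inside the range of 122.7 to 252.3 CPM of the endothelial libraries. Stard4, which moves sterols between membranes, was 4.65 times the excitatory level in astrocytes and 0.47 in precursors.

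**Figure D2:**
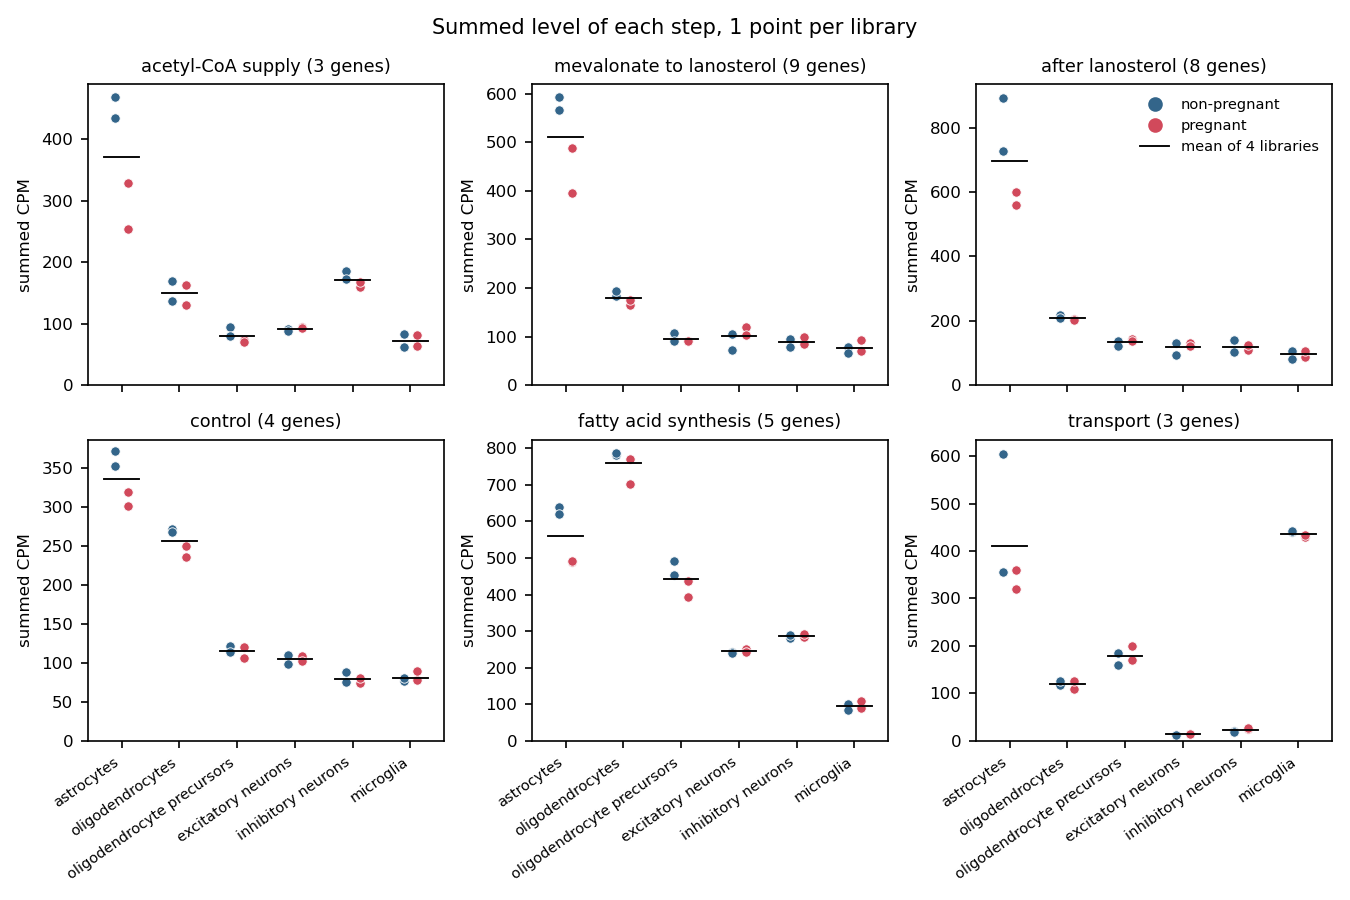
Summed CPM of the genes of each step (vertical axis) in 6 cell types (horizontal axis), with 1 point per library, blue for non-pregnant and red for pregnant, and a bar at the mean of 4 libraries. Astrocytes lead in acetyl-CoA supply and in both sterol stretches, with both pregnant libraries below both non-pregnant libraries, oligodendrocytes lead in fatty acid synthesis, and the high astrocyte point of the transport panel is non-pregnant replicate 2 at 605 CPM.

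Pregnancy was tested first in astrocytes. Of the 32 genes, 31 passed the filter on low counts there (Ebp did not), and 3 fell in pregnant mice, Acly, Acss2 and Lss, while none rose, by edgeR's quasi-likelihood test at an adjusted p under 0.05. Over all 10497 genes tested in astrocytes, 0.114% fell. The log2 fold change was negative for 30 of 31 genes, with a median of -0.49 against -0.000431 over all genes tested, and 20 of 31 had an unadjusted p under 0.05. The share of all genes under that unadjusted p is not given, here or for the other cell types. Both pregnant libraries lay below both non-pregnant libraries in 24 of the 31 genes, against 14.2% of all genes tested in astrocytes. This count includes the Apoe-rich nucleus of non-pregnant replicate 2, without which the groups of Scd2 overlapped. In bulk-like sums of nuclei, lower RNA per nucleus and a changed mixture of astrocytes cannot be told apart.

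Acly stood at 95.9 and 81.5 CPM in astrocytes of the non-pregnant libraries and at 40.1 and 49.2 CPM in those of the pregnant libraries. The groups did not overlap, and the higher pregnant library stayed well under the lower non-pregnant one. The log2 fold change was -1.01 (SE 0.20, edgeR adjusted p = 0.00411, n = 2 per group). The call was lost without pregnant replicate 1, at an adjusted p of 0.103.

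Acss2 stood at 326.2 and 316.5 CPM in the non-pregnant libraries and at 189.5 and 251.3 CPM in the pregnant libraries. The non-pregnant libraries were close together, and pregnant replicate 1 was the lowest. The log2 fold change was -0.58 (SE 0.14, edgeR adjusted p = 0.0245, n = 2 per group), and the call was lost without non-pregnant replicate 2 (adjusted p = 0.147) or without pregnant replicate 1 (adjusted p = 0.425). Acat2, the third gene of acetyl-CoA supply, had a log2 fold change of -0.64 with an adjusted p of 0.535 and did not pass.

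Lss stood at 52.4 and 45.6 CPM in the non-pregnant libraries and at 23.1 and 23.2 CPM in the pregnant libraries. The pregnant libraries were nearly equal and lay at about the same distance below both controls. The log2 fold change was -1.10 (SE 0.26, edgeR adjusted p = 0.026, n = 2 per group), and leaving out any single library ended the call, at adjusted p from 0.0706 to 0.258. Among the other 8 genes from mevalonate to lanosterol, none passed, and their log2 fold changes ran from -0.76 for Mvk to -0.03 for Idi1. Hmgcs1 stood at 157.3 and 164.7 CPM in the non-pregnant and at 139.9 and 96.97 CPM in the pregnant libraries, with log2 fold change -0.48 (adjusted p = 0.305). The groups of Hmgcs1 did not overlap, and pregnant replicate 2 was the low one. Idi1, at 53.7, 50.4, 53.7 and 50.5 CPM, and Sqle, at 76.8, 75.9, 74.05 and 69.7 CPM in the same order of libraries, were nearly level.

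After lanosterol, none of the 7 tested genes passed, but all 7 had both pregnant libraries below both controls, with log2 fold changes in the narrow range from -0.55 to -0.46. Msmo1 stood at 340.3 and 257.4 CPM in the non-pregnant and at 234.4 and 205.6 CPM in the pregnant libraries (log2 fold change -0.46, SE 0.14, adjusted p = 0.177). Cyp51 stood at 202.1 and 162.3 CPM, and at 135.2 and 116.8 CPM (log2 fold change -0.55, adjusted p = 0.111), which was the smallest adjusted p of this stretch. Both genes showed non-pregnant replicate 1 as the highest library. Nsdhl, Hsd17b7, Sc5d, Dhcr7 and Tm7sf2 had adjusted p of 0.135, 0.657, 0.578, 0.644 and 0.775.

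For the control genes in astrocytes the log2 fold changes were -0.47 for Insig1, -0.29 for Srebf1, -0.16 for Scap and -0.14 for Srebf2, none of which passed. Srebf2 stood at 165 and 147.1 CPM in the non-pregnant and at 147.4 and 142 CPM in the pregnant libraries, so the groups overlapped. Its log2 fold change of -0.14 had an adjusted p of 0.936.

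In fatty acid synthesis the log2 fold change farthest from 0 among all members was that of Scd1, which did not pass, at 15.4 and 28 CPM in the non-pregnant and 10.2 and 10.9 CPM in the pregnant libraries (log2 fold change -1.14, SE 0.37, adjusted p = 0.252). The groups did not overlap, but the controls differed more from each other than the lower control did from the pregnant libraries. Acaca stood at 300.6 and 278.1 CPM and at 227.6 and 241.1 CPM, also without overlap (log2 fold change -0.34, adjusted p = 0.496). Scd2, Elovl6 and Fasn had log2 fold changes of -0.34, -0.46 and -0.51 and did not pass either. With all nuclei counted, all 5 genes of this step had both pregnant libraries below both controls. The Apoe-rich nucleus of non-pregnant replicate 2 also held 34 of the 176 Scd2 UMIs of that library's astrocytes (19.32%). Without it 142 Scd2 UMIs remained in that library's astrocytes, which put its level between the pregnant libraries at 115.5 and 117.5 CPM. The groups of Scd2 then overlapped.

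Among the transport genes, Stard4 stood at 30.7 and 28.8 CPM in the non-pregnant and 12.9 and 18.4 CPM in the pregnant libraries (log2 fold change -0.95, SE 0.32, adjusted p = 0.265). Abca1, the only member with a positive value in astrocytes, stood at 161.2 and 160.7 CPM and at 161.7 and 176.9 CPM (log2 fold change 0.03, adjusted p = 0.995). Apoe stood at 165 and 415.6 CPM and at 145.4 and 165.3 CPM (log2 fold change -0.998, SE 0.63, adjusted p = 0.874). The groups of Apoe overlapped, and without the 1 Apoe-rich nucleus the log2 fold change was -0.11 (SE 0.15, adjusted p = 0.947).

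**Figure D3:**
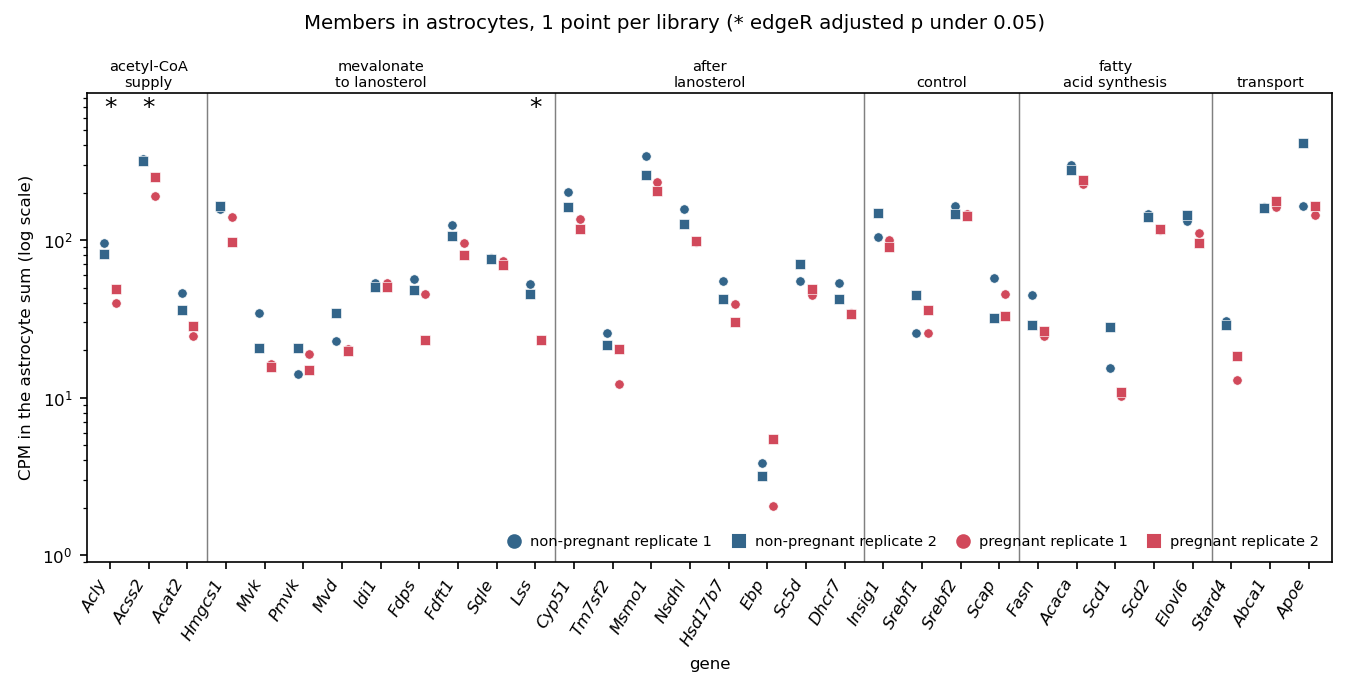
CPM of the 32 genes in the astrocyte sum (vertical log axis) by gene (horizontal axis, grouped by step), with 1 point per library, circles for replicate 1 and squares for replicate 2, blue for non-pregnant and red for pregnant. Asterisks mark Acly, Acss2 and Lss, which passed edgeR's test. With all nuclei counted, the red points lie under the blue points in 24 of the 31 genes tested.

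The astrocyte result has limits that other values show. A fit without 1 library leaves 1 library in that group, so calls lost or made there cannot show which library decides. DESeq2 called 0 of the 32 genes in astrocytes and 1 gene of all, with 6 of the 32 at an unadjusted p under 0.05, against 20 of 31 with edgeR. Without the first or the second non-pregnant library 5 and 1 members were called, and without the first or the second pregnant library 1 and 3, all lower in pregnant mice; Acly was among them in 3 of these, and the single call without pregnant replicate 1 was Hmgcs1. In these 4 fits 0.785%, 0.194%, 0.424% and 0.215% of all genes were called. The astrocyte marker list was level, at 13910 and 13770 CPM in the non-pregnant and 13900 and 13390 CPM in the pregnant libraries. Marker lists of 3 other cell types were at least 1.5 times as high in both pregnant libraries as in both controls within the astrocyte sum. Other lists moved by less, in both directions. The Car3 or claustrum list was higher in pregnant mice (88.26 and 72.73 against 134.5 and 90.82 CPM). The L5 ET list was lower (117.7 and 95.11 against 67.25 and 64.87 CPM), as were the L6b, L6 CT and L4/5 IT lists. The red blood cell list (5 genes) stood at 7.68 and 7.99 CPM in the non-pregnant and at 55.7 and 199.4 CPM in the pregnant libraries. The endothelial list (9 genes) stood at 5.12 and 4 CPM and at 29.2 and 32.1 CPM, and the list of L5/6 NP neurons, a deep-layer excitatory type (7 genes), at 14.1 and 13.6 CPM and at 38.7 and 61.5 CPM. Of these lists, 3 to 5, 2 to 8 and 4 to 5 genes had any UMI in a library, and Cldn5, Slc17a8 and Trhr were at 0 in all 4. In nuclei without any UMI of the 3 lists, a choice made after seeing the data that left 110 and 118 non-pregnant and 139 and 131 pregnant nuclei, 0 members were called, with 10 of 31 at an unadjusted p under 0.05 and a median log2 fold change of -0.36. There Acly, Acss2 and Lss had log2 fold changes of -0.85, -0.50 and -1.14 with adjusted p of 0.148, 0.182 and 0.137.

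In oligodendrocytes 31 genes were tested (Mvd was not), and edgeR called 0 of them, with 3 at an unadjusted p under 0.05, against 0.126% called over all genes. DESeq2 called 0 as well. The median log2 fold change was -0.15, against 0.000966 over all genes, and 24 of 31 values were negative. Both pregnant libraries lay below both controls in 7 of 31 genes, against 13.0% of all genes. The log2 fold changes farthest from 0 were those of Tm7sf2, Ebp and Mvk, which have few counts in this type. Tm7sf2 stood at 5.32 and 2.35 CPM in the non-pregnant and 8.69 and 6.39 CPM in the pregnant libraries (log2 fold change 0.97, SE 0.54, adjusted p = 0.719). Ebp stood at 7.09 and 7.52 CPM and at 13.3 and 16 CPM, and Mvk at 8.27 and 11.3 CPM and at 7.53 and 7.03 CPM. Their log2 fold changes were 0.93 (SE 0.37, adjusted p = 0.528) and -0.50 (SE 0.41, adjusted p = 0.834). All 3 had groups without overlap, Tm7sf2 and Ebp with the pregnant libraries higher and Mvk with them lower.

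The members with the highest UMI level of each step in oligodendrocytes, not scaled to length, did not pass either. Acaca stood at 413 and 477.9 CPM in the non-pregnant and 393.9 and 414.9 CPM in the pregnant libraries (log2 fold change -0.21, adjusted p = 0.74), and the groups overlapped. Acss2 stood at 117.6 and 87.9 CPM and at 91.5 and 110 CPM, and Fdft1 at 46.1 and 46.1 CPM and at 38.2 and 45.4 CPM. The groups of Acss2 overlapped, and those of Fdft1 did not but came close in pregnant replicate 2. Cyp51 stood at 73.3 and 60.2 CPM and at 51 and 56.9 CPM (log2 fold change -0.36, adjusted p = 0.638). Srebf2 stood at 122.9 and 121.7 CPM and at 108.9 and 113.2 CPM, and Abca1 at 84.5 and 83.6 CPM and at 81.7 and 78 CPM, both lower in both pregnant libraries but not called (adjusted p = 0.784 and 0.884). Marker lists of other cell types moved with pregnancy in the oligodendrocyte sum as well. The red blood cell list stood at 15.4 and 6.58 CPM in the non-pregnant and at 74.7 and 55.6 CPM in the pregnant libraries. Like it, 4 neuronal lists were at least 1.5 times as high in both pregnant libraries as in both controls. These were L5/6 NP (18.3 and 23.03 against 42.9 and 45.4 CPM), Pvalb (17.1 and 11.8 against 29.5 and 37.7 CPM), Sst (23.6 and 15.98 against 35.9 and 38.4 CPM) and thalamic neurons (12.4 and 15.04 against 30.7 and 30.7 CPM). The choroid plexus list (7.09 and 6.11 against 2.9 and 3.84 CPM) and the lymphocyte list (2.36 and 0.94 CPM against 0 in both) were lower. Other lists moved by less, such as Lamp5, which was higher (131.2 and 126.4 against 155.2 and 146.4 CPM). The L6 CT list was lower (85.09 and 84.12 against 79.94 and 73.53 CPM). The part of these lists in the result was not tested.

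In oligodendrocyte precursors 22 genes passed the filter and edgeR called 0 of them, with 0 at an unadjusted p under 0.05, against 0.0788% of all genes called. DESeq2 also called 0, with 0 at an unadjusted p under 0.05. The median log2 fold change was -0.14, against -0.00393 over all genes, and 6 of 22 genes had both pregnant libraries below both controls, against 14.6% of all genes. The log2 fold changes farthest from 0, none called, were those of Fdft1 (20.5 and 17.2 CPM against 12.2 and 9.18 CPM, log2 fold change -0.81, SE 0.46), Hmgcs1 (23.4 and 16.3 CPM against 13.3 and 11.8 CPM, -0.64, SE 0.44) and Acly (29.3 and 37.2 CPM against 26.6 and 19.7 CPM, -0.57, SE 0.33). Their adjusted p were 0.846, 0.881 and 0.85, and the groups did not overlap in any of the 3. Acss2 (36.6 and 24.5 CPM against 30 and 32.8 CPM), Sqle (13.2 and 18.1 against 20 and 18.4), Cyp51 (57.1 and 30.8 against 48.8 and 45.9) and Srebf2 (61.5 and 52.6 against 58.8 and 45.9) had the highest UMI level of their steps, not scaled to length, and of these only Sqle had groups apart, with the pregnant libraries higher. Acaca (218.2 and 210.3 CPM against 203.2 and 191.4 CPM) had the pregnant libraries lower, and Abca1 (136.2 and 116.1 CPM against 116.6 and 141.6 CPM) overlapped. The red blood cell list stood at 8.79 and 9.07 CPM in the non-pregnant and 52.2 and 40.6 CPM in the pregnant libraries of this sum. The excitatory neuron list stood at 67.4 and 46.2 CPM and at 117.7 and 107.5 CPM, and the ependymal list at 0 in both non-pregnant libraries and at 1.11 and 2.62 CPM in the pregnant libraries. The part of these lists was not tested. With 107 to 140 nuclei per library, 10 of the 32 genes were too low to test.

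In excitatory neurons all 32 genes were tested and edgeR called 0 of them, with 4 at an unadjusted p under 0.05 (Acat2, Scd2, Stard4 and Apoe, all higher in pregnant mice), against 1.08% of all genes called. DESeq2, which gave no adjusted p for Scd1, called 0, with 4 at an unadjusted p under 0.05. The median log2 fold change was 0.10, against 0.00550 over all genes, and 23 of 32 values were positive. Both pregnant libraries lay above both controls in 10 of 32 genes, against 23.1% of all genes. Scd2 had the smallest adjusted p, at 13.8 and 13.7 CPM in the non-pregnant and 18.3 and 18.2 CPM in the pregnant libraries (log2 fold change 0.40, SE 0.09, adjusted p = 0.0884). Its replicates were nearly equal within each group and the groups were apart.

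The largest log2 fold changes in excitatory neurons were those of Stard4, Hmgcs1 and Idi1. Stard4 stood at 4.58 and 3.52 CPM in the non-pregnant and 6.31 and 5.13 CPM in the pregnant libraries (0.50, SE 0.18, adjusted p = 0.305). Hmgcs1 stood at 24.1 and 14.8 CPM and at 29.9 and 25 CPM (0.49, SE 0.29, adjusted p = 0.646), and Idi1 at 9.16 and 5.33 CPM and at 10.7 and 8.79 CPM (0.43, SE 0.30, adjusted p = 0.693). In Hmgcs1 and Idi1 non-pregnant replicate 2 stood far below the other control, which lay near or within the pregnant libraries. The excitatory result depended on the library left out. Leaving out 1 library at a time gave a median log2 fold change of the members from 0.0094 to 0.267. The log2 fold change ran from 0.1752 to 0.8775 for Hmgcs1, from 0.0803 to 0.8573 for Idi1 and from 0.2871 to 0.6883 for Stard4. Each such fit leaves 1 library in a group, so its calls cannot show which library decides the result. The deeper sequencing of non-pregnant replicate 2 moved with its low values, and its part in them was not tested. With the replicate numbers as a block, Hmgcs1 was called in place of none (adjusted p = 0.0447). The excitatory sum also differed in make-up, with the L5/6 NP list at 231.9 and 188.5 CPM in the non-pregnant and at 524.6 and 531.1 CPM in the pregnant libraries, the L5 ET list at 55.6 and 51.9 against 113.7 and 112.2 CPM, the Sst list at 22.8 and 13.99 against 42.8 and 43.6 CPM, and the red blood cell list at 8.59 and 8.2 against 21.96 and 18.1 CPM. The L5 IT list was higher as well, at 139.5 and 113 against 219.3 and 194 CPM. The list of excitatory neurons was lower, at 1916 and 1883 against 1636 and 1700 CPM. With equal nuclei drawn from each cluster 0 members were called.

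Inhibitory neurons, in which 31 genes were tested, had 0 called by edgeR, with 2 at an unadjusted p under 0.05, against 0.216% of all genes called, and DESeq2 called 0, with 1 at an unadjusted p under 0.05. Mvd stood at 2.5 and 3.31 CPM in the non-pregnant and 1.21 and 2.1 CPM in the pregnant libraries (log2 fold change -0.82, SE 0.40, adjusted p = 0.76). Scd2 stood at 13.6 and 13.7 CPM and at 20.2 and 21.3 CPM (0.60, SE 0.16, adjusted p = 0.202), and Apoe at 4.87 and 5.52 CPM and at 6.46 and 8.98 CPM (0.56, SE 0.25, adjusted p = 0.692). None of the 3 overlapped between groups, and Scd2 again had replicates close together. The red blood cell list stood at 9.21 and 9.81 CPM in the non-pregnant and at 29.3 and 26.1 CPM in the pregnant libraries of this sum, and its part in these values was not tested.

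In 16 neuronal clusters fitted by themselves, edgeR called 0 members, against 0.594% of all gene tests, and the median log2 fold change of the members was positive in 15 of 16. The exception was the cluster with Lamp5 markers, at -0.06. All 16 clusters come from the same 4 libraries, so their medians are not independent of each other. The median over all genes of each cluster is not set beside them. With microglia added, 56 of 484 member tests had an unadjusted p under 0.05. The share of all gene tests under that p is not given here, so this count has no background. Scd2 had the smallest p in 5 of the 16 clusters and Hmgcs1 in 3. Leaving out non-pregnant replicate 1 gave 41 calls over these clusters (8.54% of 480 member tests), in fits that called 3.2% of all gene tests. Without the other non-pregnant library, or without the first or the second pregnant one, 2, 1 and 3 calls were made (0.419%, 0.21% and 0.633% of member tests), beside 1.76%, 0.433% and 0.615% of all gene tests. In microglia 17 genes were tested and 0 were called, with 0 at an unadjusted p under 0.05 in edgeR and in DESeq2, against 0.683% of all genes. Abca1 in microglia stood at 418.2 and 416.1 CPM in the non-pregnant and 388.5 and 411.7 CPM in the pregnant libraries. In the whole library, where neurons outnumber glia, edgeR called 0 of 32 members, with 3 at an unadjusted p under 0.05 (DESeq2 called 0, with 4), against 1.31% of all genes, and Acly stood at 17.5 and 16.2 CPM and at 16.8 and 17.4 CPM.

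**Figure D4:**
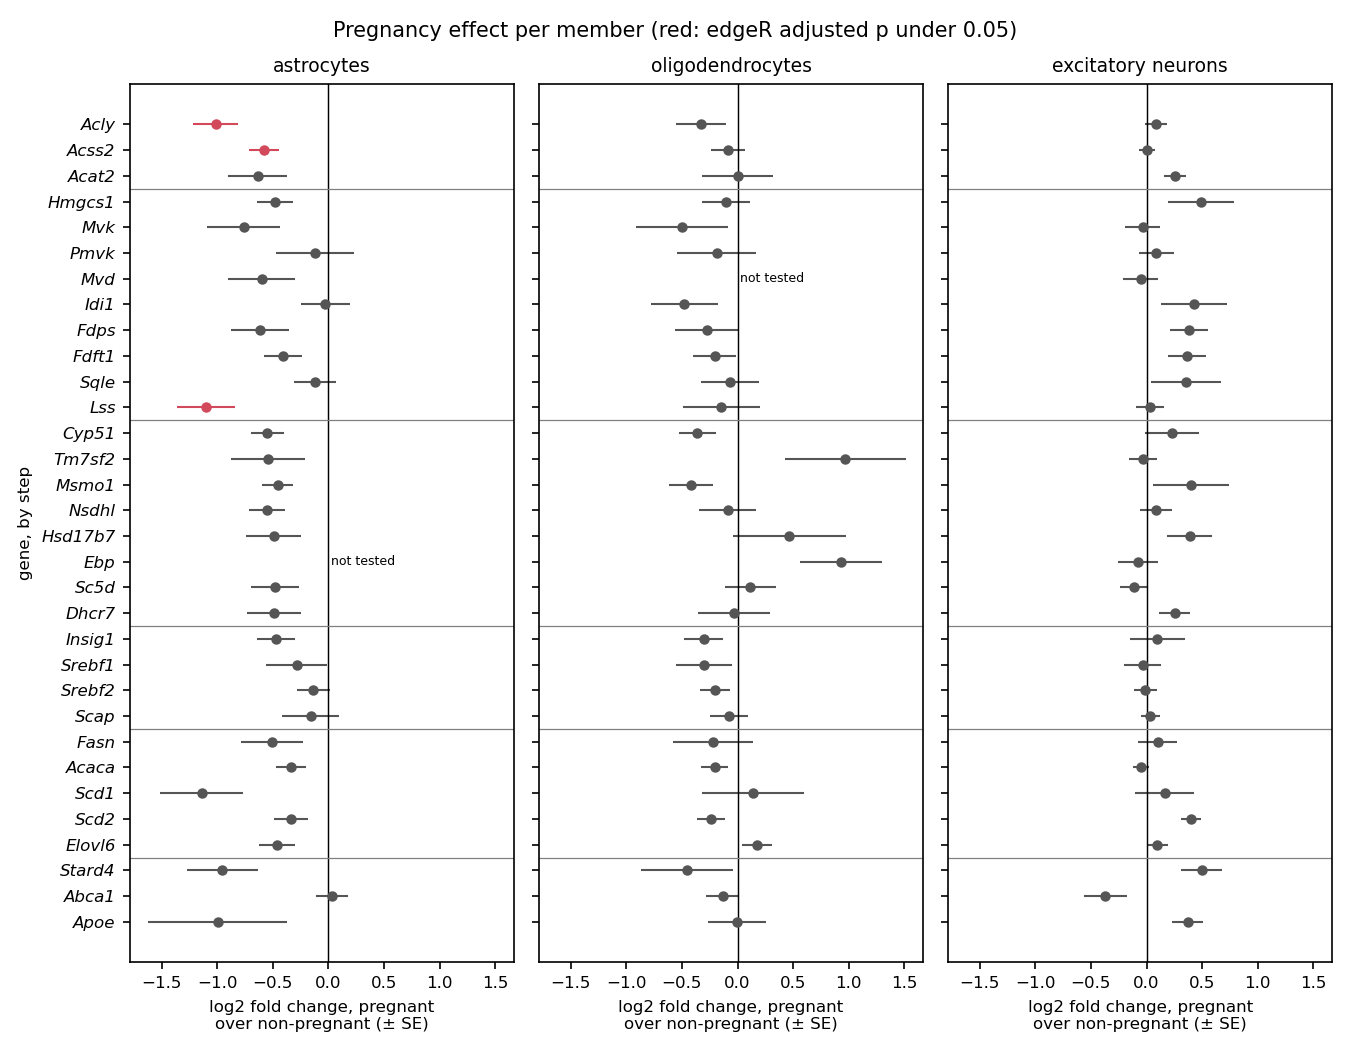
Log2 fold change between groups, positive where pregnant libraries are higher (horizontal axis, with SE as bars) for each gene (vertical axis, grouped by step) in astrocytes, oligodendrocytes and excitatory neurons. Red points passed edgeR's test; in astrocytes 30 of 31 points lie left of 0, in oligodendrocytes 24 of 31, and in excitatory neurons 9 of 32.

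Whether the pregnancy effect differed between cell types was tested with an interaction term, each library being kept as its own block. Against excitatory neurons, the effect in astrocytes was lower for 10 of 32 members by edgeR, against 0.512% of all genes. These were Acly (difference of log2 fold changes -1.08), Acss2 (-0.56), Hmgcs1 (-1.01), Fdft1 (-0.77), Lss (-1.13), Cyp51 (-0.80), Msmo1 (-0.87), Scd2 (-0.71), Stard4 (-1.44) and Apoe (-1.24). They come from every step but control, and Scd2 alone stands for fatty acid synthesis. The Apoe-rich nucleus held 19.32% of the Scd2 UMIs of its library's astrocytes. Leaving out a library gave 10, 1, 2 and 0 calls in the order of non-pregnant replicates 1 and 2 and pregnant replicates 1 and 2, and those fits called 1.06%, 0.231%, 0.38% and 0.102% of all genes. The difference ran from -1.84 to -0.40 for Apoe (-0.40 without non-pregnant replicate 2), from -1.39 to -0.55 for Hmgcs1 (-0.55 without the same library) and from -0.79 to -0.35 for Acss2 (-0.35 without pregnant replicate 1), which was called in 0 of these 4 fits. DESeq2 called 0 of the 26 members for which it gave an adjusted p, with 16 of 32 at an unadjusted p under 0.05, against 19 with edgeR. Without the 1 Apoe-rich nucleus 8 were called, and Apoe had a difference of -0.44 (adjusted p = 0.691). That fit called 146 of 18943 genes in either direction. In nuclei without UMIs of the 3 other lists, 2 were called, Hmgcs1 and Msmo1, beside 85 of 18611 genes in either direction.

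In oligodendrocytes the effect was lower than in excitatory neurons for 2 members, Msmo1 (-0.90, adjusted p = 0.00611) and Scd2 (-0.66, adjusted p = 0.00566), against 0.676% of all genes. Leaving out a library gave 8, 1, 0 and 0 calls in the same order, beside 2.28%, 0.785%, 0.351% and 0.273% of all genes. The difference of Msmo1 was -1.49 without non-pregnant replicate 1 and -0.22 without non-pregnant replicate 2, and it stayed called in 1 of the 4 fits. That of Scd2 ran from -0.78 to -0.55 and stayed called in 2. DESeq2 gave an adjusted p for 6 of the 32 members here, Scd2 among them and Msmo1 not, and called 0. In precursors 0 members differed from excitatory neurons, with 3 at an unadjusted p under 0.05 (DESeq2 called 0 of the 4 it gave an adjusted p, with 2 of 32 unadjusted), against 0.645% of all genes, and in inhibitory neurons 0, with 5 (DESeq2 0, with 1), against 0.778%. Astrocytes were also set against oligodendrocytes, a test added after seeing the data. There edgeR called 0 of 32 members, with 7 at an unadjusted p under 0.05, against 0.0338% of all genes. The astrocyte effect is therefore not shown to differ from that in oligodendrocytes.

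Another 32 genes of the pathway, including partners of the Srebf system, fatty acid desaturases and elongases, and sterol receptors and carriers, served for comparison. Of these, 25, 25, 24, 31 and 31 were tested in astrocytes, oligodendrocytes, precursors, excitatory and inhibitory neurons, and edgeR and DESeq2 called 0 in each, with 3, 2, 1, 3 and 0 at an unadjusted p under 0.05 by edgeR. Their median log2 fold change in astrocytes was -0.13. The smallest p in astrocytes was that of Me1, the malic enzyme that supplies reducing power for fatty acid synthesis, at 86.98 and 87.1 CPM in the non-pregnant and 58.4 and 56.7 CPM in the pregnant libraries (log2 fold change -0.63, SE 0.19, adjusted p = 0.169). Over the 16 neuronal clusters 451 tests of these genes gave 1 call, a smaller share than the 0.594% of all gene tests called there. The gene is named here after its values were seen. Lrp8, a receptor for apolipoprotein E and reelin, stood at 70.3 and 72.5 CPM in the non-pregnant and at 42.5 and 52.1 CPM in the pregnant libraries in the cluster with L6 IT markers, and fell by 0.62 on the log2 scale (SE 0.13, adjusted p = 0.0277). Its groups were apart there. In that cluster 0.542% of all genes were called, and without pregnant replicate 1 none of these genes was called in it.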

How the data were processed

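Nuclei of 4 cortex samples were counted with Cell Ranger 10.0.0 on GRCm39, per the submitters' processing notes, and the authors deposited raw UMI counts per gene and barcode. Barcodes with at least 500 genes and at most 5% mitochondrial UMIs were kept, and the top 5% by doublet score of each library were left out; of held-out simulated doublets, 46.8% to 75.7% were marked. Nuclei were clustered (scanpy 1.11.5, leidenalg 0.10.2, 2000 variable genes without the pathway genes, 40 components, resolution 1) into 33 clusters, which were named from marker lists, so names are rebuilt and not the authors'. UMIs were summed per cell type and library and tested with edgeR 4.0.16 (quasi-likelihood, TMM, filterByExpr minimum count 10, Benjamini-Hochberg adjustment over all genes of a cell type, threshold 0.05); DESeq2 1.42.0 was an alternative. Differences between cell types used an interaction term with the library as a block. In simulated astrocyte counts, 45% of genes changed by 1 log2 unit and 89% changed by 2 were recovered, with 5 false calls among 10178 genes. Named genes are those called, the 3 with the log2 fold change farthest from 0 in each cell type, and in glia the member with the highest level of each step. The members and lists were chosen with earlier results of these data known. No columns of other samples were used.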

Additional observations from a re-analysis of the deposited data

Results flagged for a closer look

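The pregnancy effect differed between cell types, by the interaction test, for 10 members in astrocytes against excitatory neurons. The differences of log2 fold changes were -1.08 for Acly, -0.56 for Acss2, -1.01 for Hmgcs1, -0.77 for Fdft1, -1.13 for Lss, -0.80 for Cyp51, -0.87 for Msmo1, -0.71 for Scd2, -1.44 for Stard4 and -1.24 for Apoe, each lower in astrocytes. Leaving out 1 library moved several of them: Apoe ran from -1.84 to -0.40, Hmgcs1 from -1.39 to -0.55, Acss2 from -0.79 to -0.35 and Stard4 from -1.88 to -1.04. Acss2 was called in 0 of the 4 such fits, Acly, Hmgcs1 and Apoe in 2 and the other 6 in 1. Without 1 Apoe-rich nucleus of non-pregnant replicate 2 the difference of Apoe was -0.44 (edgeR adjusted p = 0.691). That nucleus also held 34 of the 176 Scd2 UMIs of that library's astrocytes (19.32%). In oligodendrocytes against excitatory neurons the differences were -0.90 for Msmo1 and -0.66 for Scd2. Msmo1 ran from -1.49 without non-pregnant replicate 1 to -0.22 without non-pregnant replicate 2 and was called in 1 of 4 such fits, and Scd2 ran from -0.78 to -0.55 and was called in 2. DESeq2 gave an adjusted p for 11 of these 12 differences, not for Msmo1 in oligodendrocytes, and called 0 of the 11.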

How the results depend on the processing

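Called members changed when a library was left out. Each such fit leaves 1 library in a group, so its calls cannot show which library decides. Leaving out 1 library at a time gave 1 to 5 called members in astrocytes (3 with all libraries), 0 to 1 in oligodendrocytes (Msmo1 without non-pregnant replicate 1), 0 to 13 in excitatory neurons, 0 to 10 in the whole library and 1 to 41 over the neuronal clusters. For the difference from excitatory neurons it gave 0 to 10 in astrocytes, 0 to 8 in oligodendrocytes and 0 to 1 in inhibitory neurons. DESeq2 gave 0 members in astrocytes and 0 for the difference in astrocytes and in oligodendrocytes, where it gave an adjusted p for 26 and 6 of the 32 members. Astrocyte nuclei without UMIs of 3 other lists gave 0 members and 2 for the difference. Without the filter on low counts 1 member was called in excitatory neurons, 1 in inhibitory neurons and 10 over the neuronal clusters, and adding the held-out clusters gave 1 in excitatory neurons. The replicate numbers do not pair the libraries by the labels, and deviations of same-numbered libraries were not correlated above 0.1 in any cell type (for example -0.01 in astrocytes and 0.0064 in excitatory neurons). With the replicate block 4 members were called in astrocytes, 1 in excitatory neurons, 1 in the whole library and 3 over the neuronal clusters. In inhibitory neurons the correlation was -0.14, and with crossed pairing 63 genes and 0 members were called. The count over all genes, given below, also rose without the filter, with the held-out clusters and with the replicate block. Over the neuronal clusters 1.01% of all gene tests were called without the filter, beside 1.95% of member tests. With the replicate block these shares were 0.984% and 0.642%.

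The count over all genes also moved. It was 34 in astrocytes (22 to 89 leaving out 1 library, 65 with the replicate block, 61 without the filter, 1 with DESeq2, 13 without UMIs of 3 lists), 13 in oligodendrocytes (9 to 353, 20, 82, 2 with DESeq2, 20 without the doublet filter) and 7 in precursors (8 to 39, 19, 15, 0). It was 208 in excitatory neurons (0 to 2039, 403, 663, 492, with 355 after adding the held-out clusters and 131 with equal nuclei), 31 in inhibitory neurons (47 to 232, 82, 126, 18) and 273 in the whole library (0 to 1894, 835, 586, 557). For the differences it was 146 in astrocytes (20 to 207, 18 with DESeq2), 167 in oligodendrocytes (53 to 442, 52), 119 in precursors (51 to 196, 47) and 148 in inhibitory neurons (41 to 655, 83, and 466 without the filter).

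Directions turned in some leave-one-out fits, in which the log2 fold change ran from -0.257 to 0.0933 for Acss2 in oligodendrocytes (positive without non-pregnant replicate 1, and 0.0105 without pregnant replicate 1). In precursors it ran from -0.235 to 0.288 for Acss2 and from -0.275 to 0.556 for Cyp51 (both negative without non-pregnant replicate 2), and from -0.379 to 0.0538 for Srebf2 (positive without pregnant replicate 2). For Abca1 in precursors it ran from -0.106 without pregnant replicate 2 to 0.099 and was -0.0953 without non-pregnant replicate 2, -0.0072 without the filter and -0.0087 with DESeq2. The cause was not tested for any of these. With 128 to 243 astrocyte nuclei per library, members with few counts are the least certain.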
